A study of Mus musculus with 6 samples.

Results

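The genes described here are the 10 neddylation and cullin exchange factors Nedd8, Nae1, Uba3, Ube2m, Ube2f, Arih1, Arih2, Cand1, Cand2 and Dcun1d1. They were taken by name from a fixed list, and all 10 were found among the 11242 entries of the deposited gene-level table and among the 12925 genes tested here. RNA was sequenced from naive CD4+ T cells of C57BL/6 mice that had been cultured for 48 h in Th9 polarising conditions, with 3 WT and 3 Cul5 cKO samples. Activation was through anti-CD3 and anti-CD28, and the polarising mixture held IL-4, TGF-β and anti-IFN-γ. Both genotypes carried loxP-flanked Cul5 alleles, since the WT controls were Cul5 fl/fl littermates without Cre, and the Cul5 cKO mice were Cul5 fl/fl CD4-Cre. CD4-Cre acts in developing T cells, so the deletion in T cells preceded the cultures. By the study's description the mice were 8 to 10 weeks old and the libraries came from 1 experiment. The labels do not say whether the samples of a genotype came from separate mice, so the p-values measure only the spread between these samples, which may be technical.

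NEDD8 is a small ubiquitin-like protein that is attached to a lysine of the cullin scaffold and switches a cullin-RING ubiquitin ligase on. The NEDD8 activating enzyme, a heterodimer of NAE1 and UBA3, hands NEDD8 to one of a pair of E2 enzymes. UBE2M works with RBX1 on most cullins, and UBE2F works with RBX2, which is encoded by Rnf7, on CUL5. DCN1-like proteins such as DCUN1D1 hold the E2 against the cullin. Neddylated cullins then recruit a RING-between-RING ligase that adds the first ubiquitin to the substrate. ARIH1 does this with the RBX1 cullins and ARIH2 with CUL5. The COP9 signalosome removes NEDD8 again, and CAND1 and CAND2 bind the free cullin and exchange its substrate receptors. Loss of Cul5 therefore removes the cullin that UBE2F, RBX2 and ARIH2 serve, and the comparison below asks whether the transcripts of this machinery differed without it.

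The libraries held between 3944803 counts in WT replicate 3 and 23454552 in Cul5 cKO replicate 3, and the other 4 held at least 23111689 each. Cul5 itself, which encodes the deleted scaffold, was at 64.4, 69.3 and 65.0 CPM, counts scaled to the TMM-adjusted size of each library, in WT replicates 1, 2 and 3 and at 10.6, 14.2 and 13.1 CPM in the Cul5 cKO samples. The groups lay far apart, and Cul5 fell by 2.39 on the log2 scale (SE 0.115, edgeR adjusted p = 0.000992). Reads from undeleted exons and reads from cells that kept the gene cannot be told apart in these counts. The 6 CD4 T cell markers summed to between 1391 and 1439 CPM in WT and between 1255 and 1265 CPM in Cul5 cKO samples. Of these markers, Cd28 was called lower, with a log2 fold change of -1.17 (edgeR adjusted p = 0.0205). Cd3d, Cd3e, Cd3g, Cd4 and Lck, with -0.13, -0.34, -0.35, -0.02 and -0.09, were not called. The 6 Th9 markers summed to between 1899 and 2068 CPM in WT and between 2398 and 2997 CPM in Cul5 cKO samples. Of the Th9 markers, Il9 rose by 1.41 on the log2 scale (edgeR adjusted p = 0.0112), and Irf4, Batf, Gata3 and Il4ra, with 0.35, 0.39, -0.16 and -0.25, were not called. Spi1, a factor of Th9 and of myeloid cells, was at 0.213 CPM or less in WT and reached 6.05 CPM in Cul5 cKO replicate 2. That library also had the most counts of the myeloid genes Lyz2, at 2.8 CPM against at most 0.26 CPM elsewhere, and Csf1r, at 2.63 CPM against at most 0.174 CPM. Adgre1 was highest there too, at 2.98 CPM against at most 2.09 CPM elsewhere. Itgam, of the same list, was highest in WT replicate 2, at 5.93 CPM against 2.50 CPM in Cul5 cKO replicate 2. Cd14 was at 0.0869 CPM or less in every sample. The 4 B cell markers added up to 13.8 to 17.6 CPM in WT samples, whereas the 3 Cul5 cKO samples had 6.40, 8.98 and 39.4 CPM. The sum of the 2 CD8 markers was likewise highest in the last of these, Cul5 cKO replicate 3, at 11.7 CPM. Cd8a was at 6.27 CPM there and at most 1.71 CPM elsewhere. Cd8b1 was at 5.39 CPM there and reached 5.45 CPM in WT replicate 2. The 5 myeloid markers summed to 2.59 to 10.9 CPM over all samples, highest in Cul5 cKO replicate 2, the 3 erythroid markers to at most 1.31 CPM and the 3 NK cell markers to at most 0.253 CPM, with Ncr1 and Klra8 at 0 in every sample.

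None of the 10 genes was called different between Cul5 cKO and WT by the edgeR quasi-likelihood test at an adjusted p under 0.05, against 133 of 12925 genes, or 1.03%, over the whole table. Log2 fold changes ran from -0.17 for Cand2 to 0.26 for Ube2m, with a median of -0.0015 beside -0.0068 over all genes tested. The estimate was above 0 for 5 genes and below 0 for 5, a split that became 2 above 0 when libraries were scaled by their totals alone, 3 above 0 on log2 TPM and 7 above 0 without WT replicate 3 or without Cul5 cKO replicate 2. One gene, Ube2m, had an unadjusted p under 0.05, which 21.3% of all genes tested had. Ube2m was also the only one of the 10 whose genotypes were fully separated, a pattern seen for 27.5% of all genes tested and, with the Cul5 cKO samples on the higher side, for 14.0%. The 10% that 1 of 10 genes makes is below each of these background shares. The 95% intervals of all 10 log2 fold changes lay within 0.5 of 0 on either side. In bulk RNA, fewer expressing cells and less RNA per cell cannot be told apart, which holds for every value here.

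**Figure D1:**
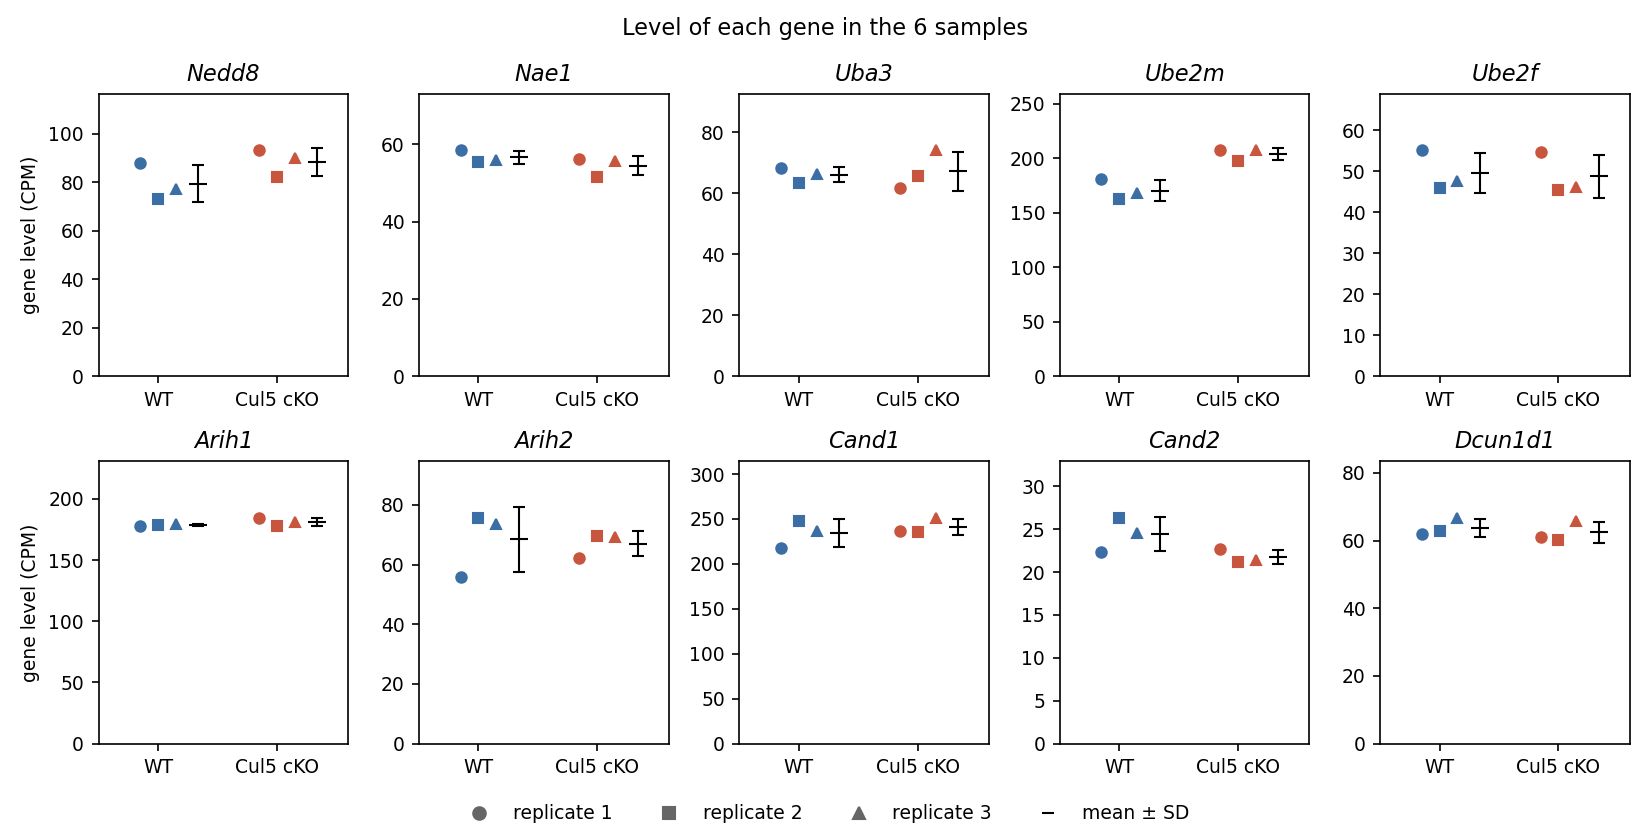
Level of each of the 10 genes in CPM (y axis, from 0) in the 3 WT samples (blue) and the 3 Cul5 cKO samples (red), with the marker shape giving the replicate number and the black bars the mean ± SD. Only the Ube2m samples separate by genotype, from 163 to 181 CPM in WT and from 198 to 208 CPM in Cul5 cKO.

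The modifier and its activating enzyme are described first. Nedd8 (GRCm38 chromosome 14, 55662263 to 55672124, minus strand) was at 87.9, 73.2 and 77.4 CPM in WT replicates 1, 2 and 3 and at 93.4, 82.2 and 90.2 CPM in the Cul5 cKO samples. The groups overlapped, because WT replicate 1 lay above Cul5 cKO replicate 2. The log2 fold change was 0.15 (95% interval -0.06 to 0.36, edgeR adjusted p = 0.371). Transcripts of Nedd8 share 184 bases with Gmpr2, a guanosine monophosphate reductase gene on the opposite strand that held 41.2% as many counts, and the strand of the libraries is not given in the sources used here. Gmpr2 had a log2 fold change of 0.12 (SE 0.156, edgeR adjusted p = 0.693), and its part in the Nedd8 values was not tested.

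Nae1 (chromosome 8, 104511028 to 104534637, minus strand) encodes the regulatory subunit of the activating enzyme. It was at 58.5, 55.4 and 55.9 CPM in WT and at 56.1, 51.6 and 55.8 CPM in Cul5 cKO samples, with a log2 fold change of -0.06 (95% interval -0.21 to 0.10, edgeR adjusted p = 0.661). Uba3 (chromosome 6, 97183670 to 97205647, minus strand) encodes the catalytic subunit. Its values were 68.4, 63.5 and 66.3 CPM in WT and 61.7, 65.6 and 74.2 CPM in Cul5 cKO samples, and the lowest and the highest of the 6 were both Cul5 cKO samples. The log2 fold change of Uba3 was 0.02 (95% interval -0.17 to 0.22, edgeR adjusted p = 0.904). The log2 ratio of Nae1 to Uba3 within a sample was -0.22, -0.20 and -0.25 in WT and -0.14, -0.35 and -0.41 in Cul5 cKO samples. The Cul5 cKO ratios lay on both sides of the WT ones and were more spread, and the difference of -0.08 did not pass an exact two-sided permutation test over samples (p = 0.4, adjusted p = 0.533 over 4 ratios). That test cannot go below 0.1 for 3 samples against 3.

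Of the pair of E2 enzymes, Ube2m (chromosome 7, 13035120 to 13038275, minus strand) was at 181, 163 and 168 CPM in WT replicates 1, 2 and 3, with a mean of 170.4 ± 9.32 CPM (SD, n = 3). In Cul5 cKO replicates 1, 2 and 3 it was at 207, 198 and 208 CPM, with a mean of 204 ± 5.51 CPM (SD, n = 3). Every Cul5 cKO sample was above every WT sample. The fitted difference was 1.20-fold (95% interval 1.08 to 1.33), a log2 fold change of 0.26 with an SE of 0.0646. The unadjusted p of 0.00437 placed Ube2m at rank 543 of 12925 genes, and the edgeR adjusted p of 0.104 did not pass the threshold. The deposited log2 CPM of the authors' table ran from 7.43 to 7.61 in WT and from 7.73 to 7.81 in Cul5 cKO samples, again without overlap.

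Whether Ube2m was called depended on the model. Its log2 fold change lay between 0.22 and 0.31 under every alternative tried. The adjusted p was 0.0216 with DESeq2, which called 5.84% of the genes to which it gave one. It was 0.0244 with the difference of replicate 1 from the others as a term in edgeR, which called 13.1%. With replicates 2 and 3 alone edgeR gave 0.0385 and called 8.83%, and limma's voom with sample quality weights gave 0.0275 and called 9.74%. Apart from the unadjusted p, the other alternatives left Ube2m uncalled, including edgeR without WT replicate 1 (adjusted p = 0.0568). Without Cul5 cKO replicate 3, the library with the highest sums of B cell and CD8 markers, edgeR gave a log2 fold change of 0.25 (adjusted p = 0.324). Without Cul5 cKO replicate 2, the library with the highest sum of myeloid markers, edgeR gave 0.29 (adjusted p = 0.206).

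Ube2f (chromosome 1, 91250304 to 91290337, plus strand), the E2 that serves CUL5, was at 55.1, 45.8 and 47.6 CPM in WT and at 54.6, 45.4 and 46.0 CPM in Cul5 cKO samples. The genotypes gave nearly the same 3 values, with replicate 1 the highest in each. The log2 fold change was -0.03 (95% interval -0.28 to 0.22, edgeR adjusted p = 0.910). The log2 ratio of Ube2m to Ube2f was 1.71, 1.83 and 1.82 in WT and 1.92, 2.12 and 2.17 in Cul5 cKO samples, all 3 of the latter above the former. This is a CPM ratio of 3.45 in WT and 4.21 in Cul5 cKO cultures, a log2 difference of 0.29. The exact two-sided permutation test gave p = 0.1, the smallest it can give, and an adjusted p of 0.2 over 4 ratios. Taken from the transcript with the most counts of each gene, the difference turned to -0.12, and the transcript shares of WT replicate 3 that enter this value are given below.

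**Figure D2:**
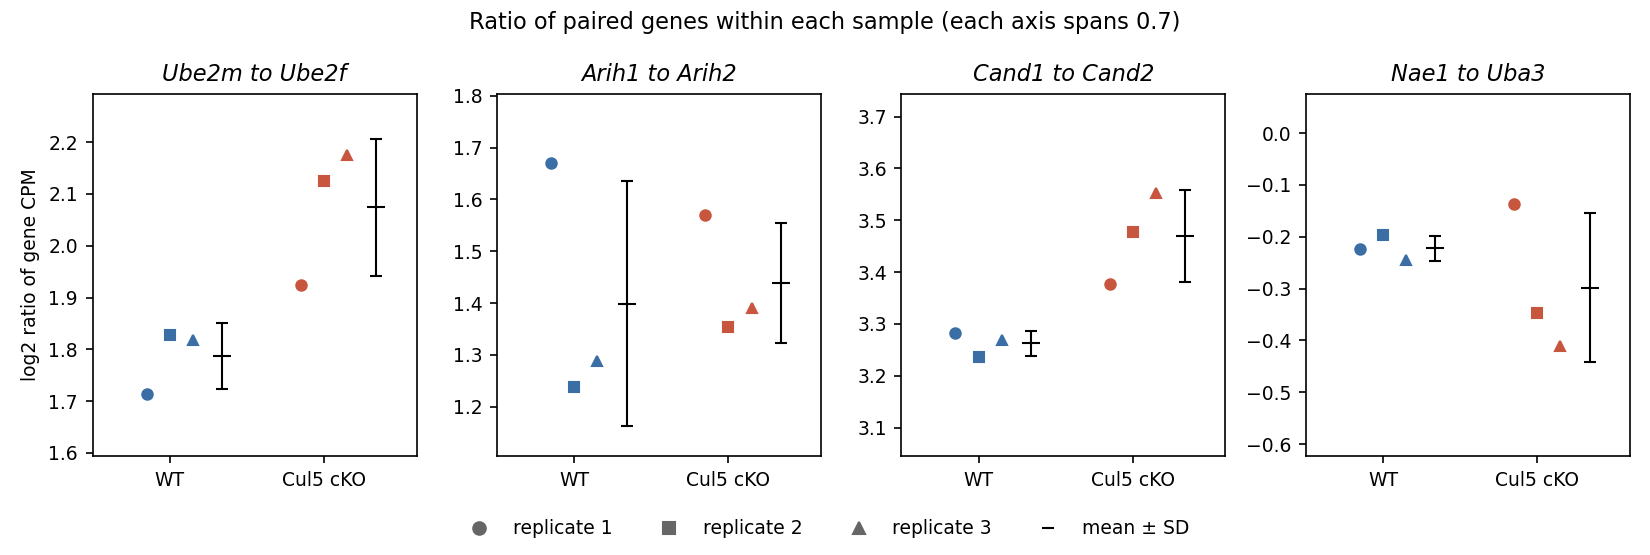
Log2 ratio of gene CPM (y axis, spanning 0.7 in each panel) for 4 pairs of genes in the 3 WT samples (blue) and the 3 Cul5 cKO samples (red), with mean ± SD in black. The groups do not overlap for Ube2m to Ube2f and for Cand1 to Cand2, and overlap for the other 2 pairs.

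The ligases that add the first ubiquitin differed little between genotypes. Arih1 (chromosome 9, 59388258 to 59486618, minus strand), the partner of RBX1 cullins, was at 178, 179 and 179.9 CPM in WT and at 185, 178 and 181 CPM in Cul5 cKO samples. It had the narrowest interval of the 10 genes, with a log2 fold change of 0.02 (95% interval -0.11 to 0.15, edgeR adjusted p = 0.866). Arih2 (chromosome 9, 108602942 to 108649386, minus strand), the partner of CUL5, was at 55.9, 75.8 and 73.6 CPM in WT and at 62.2, 69.6 and 69.2 CPM in Cul5 cKO samples. All 3 Cul5 cKO values lay inside the WT range, and replicate 1 was the lowest in both genotypes. The log2 fold change of Arih2 was -0.02 (95% interval -0.31 to 0.26, edgeR adjusted p = 0.940), the widest interval of the 10. The log2 ratio of Arih1 to Arih2 was 1.67, 1.24 and 1.29 in WT and 1.57, 1.35 and 1.39 in Cul5 cKO samples. The mean differed by 0.04 (exact two-sided permutation p = 0.7, adjusted p = 0.7 over 4 ratios), and the sign of that difference turned when any one of 3 samples was left out, WT replicate 2 (-0.04), WT replicate 3 (-0.02) and Cul5 cKO replicate 1 (-0.03).

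The genes whose log2 CPM followed that of Arih2 most closely over the 6 samples were Nup153, a nuclear pore gene, Kif26b, a kinesin family gene, and Proser1, with Pearson r of 0.998, 0.996 and 0.996. In all, 98 of 12924 genes had an r above 0.95. The 6 points share the low value of replicate 1 in both genotypes. Nup153 was at 322, 402 and 393 CPM in WT and at 347, 373 and 378 CPM in Cul5 cKO samples, whereas Kif26b was below 1 CPM throughout.

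The exchange factors were measured at very different levels. Cand1 (chromosome 10, 119199255 to 119240055, minus strand) was at 218, 248 and 237 CPM in WT and at 236, 236 and 252 CPM in Cul5 cKO samples. The groups overlapped, with a log2 fold change of 0.04 (95% interval -0.12 to 0.21, edgeR adjusted p = 0.758) that was -0.14 on log2(TPM + 1). Cand2 (chromosome 6, 115774538 to 115805557, plus strand) was at 22.4, 26.3 and 24.5 CPM in WT and at 22.7, 21.2 and 21.4 CPM in Cul5 cKO samples. One pair of samples kept the groups from separating, since WT replicate 1 lay below Cul5 cKO replicate 1. The log2 fold change of Cand2 was -0.17 (95% interval -0.39 to 0.06, edgeR adjusted p = 0.363).

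The log2 ratio of Cand1 to Cand2 was 3.28, 3.24 and 3.27 in WT and 3.38, 3.48 and 3.55 in Cul5 cKO samples, without overlap. The difference was 0.21 (exact two-sided permutation p = 0.1, adjusted p = 0.2 over 4 ratios), and it was 0.02 when TPM took the place of CPM. The Cand2 transcript shares a stretch of 161 bases at 96.3% identity with Slc35e2, and 53 bases with Rpl32 on the opposite strand, a ribosomal protein gene with a mean of 15459 counts beside 453 for Cand2. Slc35e2 had a log2 fold change of -0.09 (edgeR adjusted p = 0.475) and Rpl32 one of 0.07 (edgeR adjusted p = 0.618). Their part in the Cand2 values was not tested.

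Dcun1d1 (chromosome 3, 35892105 to 35937445, minus strand), which encodes the DCN1-like co-E3, was at 61.9, 62.7 and 66.8 CPM in WT and at 61.1, 60.3 and 65.8 CPM in Cul5 cKO samples. Replicate 3 was the highest in both genotypes, and the groups overlapped. The log2 fold change was -0.03 (95% interval -0.19 to 0.13, edgeR adjusted p = 0.854). In the authors' gene-level table Dcun1d1 had 4.44 to 5.27 log2 CPM in WT and 4.71 to 5.20 in Cul5 cKO samples. Put on one scale, these values were lower than the CPM above in every sample, and the reason was not tested. Limma on the authors' values gave a log2 fold change of 0.11 (adjusted p = 0.840).

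**Figure D3:**
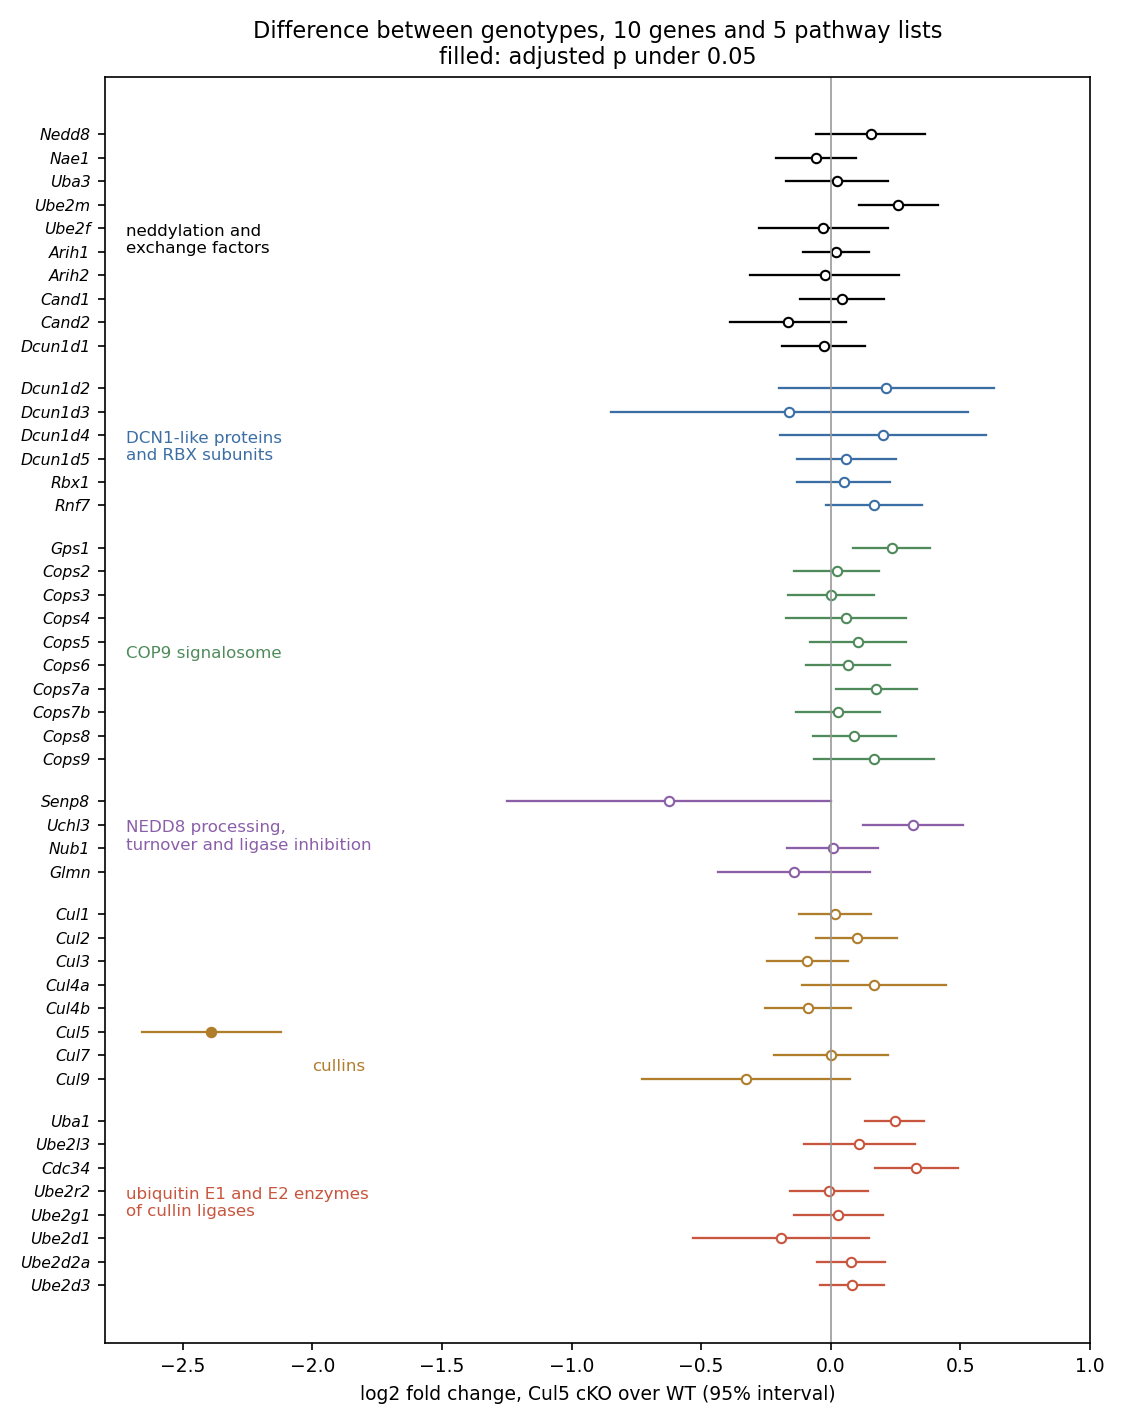
Log2 fold change of Cul5 cKO over WT (x axis) with its 95% interval for the 10 neddylation and exchange factors and for 36 other genes in 5 pathway lists, each gene on its own line. Filled circles passed an adjusted p under 0.05, which Cul5 alone did, at -2.39; the 10 genes sit between -0.17 and 0.26.

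Replicate 1 stood apart from replicates 2 and 3 for several of these genes in both genotypes. Ube2f was higher in replicate 1 than in the mean of the other 2 by 0.24 on the log2 scale in WT and by 0.26 in Cul5 cKO samples, and Nedd8 by 0.22 and 0.12. Arih2 had differences of -0.42 in WT and -0.16 in Cul5 cKO samples. The sign was the same in both genotypes for 7 of the 10 genes. That count was not taken over all genes tested, so it cannot show whether 7 is unusual. In size, the difference of replicate 1 from the other 2 exceeded the log2 fold change between genotypes in both WT and Cul5 cKO samples for several genes. These were Ube2f, Arih2, Nae1, Uba3, Cand1 and Dcun1d1. The labels give only the replicate number, and do not say what the first replicates share.

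Compared per length, in TPM, the share of all transcripts that a gene makes up once counts are divided by length, the 10 genes spanned a 43.4-fold range of mean level in WT cultures. Ube2m was the highest at 273 ± 10.2 TPM (SD, n = 3), followed by Nedd8 at 251 ± 20.9 TPM, and the 2 overlapped in their ranges. Cand1 came next at 135 ± 22.3 TPM, below Nedd8 and above the rest in every WT sample. Nae1 at 60.3 ± 7.87 TPM, Arih1 at 56.9 ± 3.29 TPM and Ube2f at 56.5 ± 5.30 TPM followed, and each overlapped its neighbour. Nae1 was at 55.5, 56.0 and 69.4 TPM in WT replicates 1, 2 and 3, and was the highest of these genes only in WT replicate 3. Their WT order, with which the Cul5 cKO order is compared below, therefore depended on that library. Uba3 at 45.3 ± 1.03 TPM, Dcun1d1 at 45.1 ± 1.52 TPM and Arih2 at 40.9 ± 6.78 TPM formed a further run of overlapping neighbours. Cand2 was the lowest at 6.29 ± 0.722 TPM, the only one of the 10 under the median of 18.3 TPM over all genes tested. Ube2m and Nedd8 exceeded 96.4% and 96.0% of the genes tested. In Cul5 cKO cultures the order differed in one place, with Arih1 at 55.3 ± 0.685 TPM before Nae1 at 54.7 ± 2.28 TPM, and those ranges overlapped too. The ranges of Ube2m (309 to 331 TPM) and Nedd8 (253 to 304 TPM) no longer did.

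**Figure D4:**
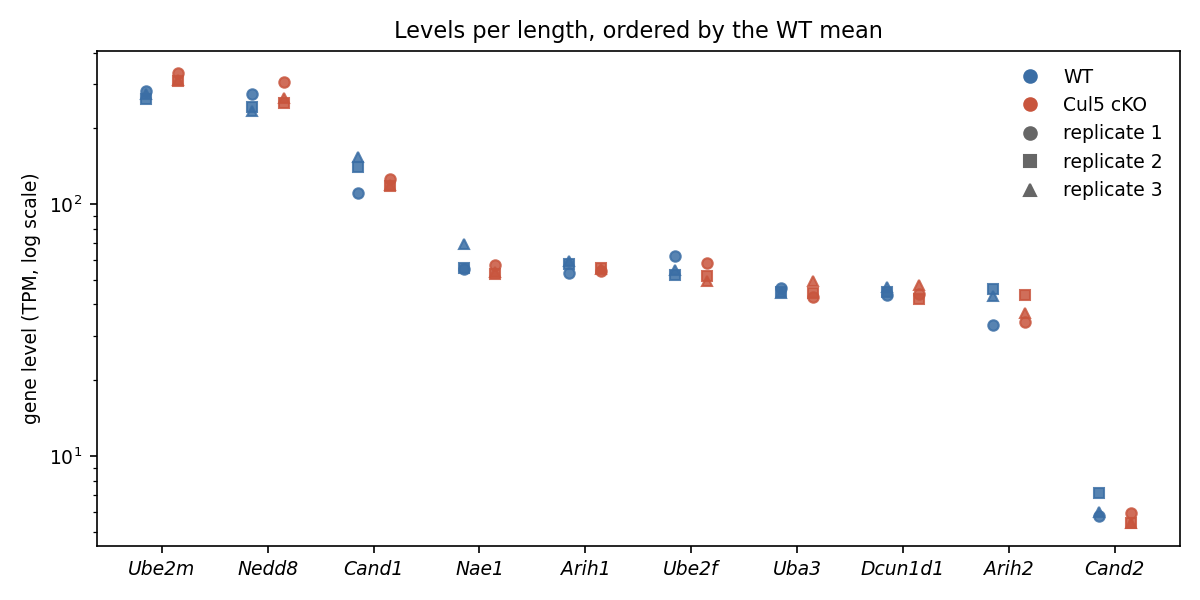
Level per length in TPM (y axis, log scale) of the 10 genes, ordered by the WT mean, with WT samples in blue and Cul5 cKO samples in red and the marker shape giving the replicate number. Ube2m and Nedd8 lie above 200 TPM, Cand1 between 111 and 154 TPM, 6 genes between 33.3 and 69.4 TPM, and Cand2 near 6 TPM.

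The estimated counts also divide each gene among its annotated transcripts. These shares are estimates from the assignment of single-end reads, and which transcripts were present was not tested. Cand2 has 1 annotated transcript. Uba3, Arih1 and Cand1 were each dominated by 1 protein-coding transcript, with mean shares over the 6 samples of 87.6%, 84.6% and 89.4%. Ube2m was divided between the coding Ube2m-201 and Ube2m-205, a transcript with a retained intron. Outside WT replicate 3, Ube2m-201 held 49.0% to 52.4% of the gene's counts and Ube2m-205 held 38.9% to 41.7%. In CPM, Ube2m-201 was at 92.6, 84.0 and 72.5 in WT and at 103, 97.1 and 109 in Cul5 cKO samples, and Ube2m-205 was at 70.4, 63.3 and 45.7 in WT and at 86.4, 79.9 and 82.6 in Cul5 cKO samples. Neither overlapped between genotypes, and WT replicate 3 was the lowest in both. Such separation was not particular to Ube2m. Arih1-201 was also separated, with Cul5 cKO higher, and Cand1-202 and Arih2-208 were separated with Cul5 cKO lower. The other transcripts with a mean of at least 10 counts overlapped.

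WT replicate 3 stood apart from the other libraries in these shares. Its share lay outside the range of the other 5 samples for 37 of the 46 transcripts with a mean of at least 10 counts, against 6 to 14 for any other sample. Ube2m-203, a short coding transcript, held 24.1% of the Ube2m counts in WT replicate 3 and 0.8% to 2.5% elsewhere. Ube2f-204 held 25.2% of the Ube2f counts there and 57.1% to 65.5% elsewhere, while Ube2f-210 held 46.9% and 9.6% to 19.2%. The same library had 65.1% of Nae1 counts on Nae1-201, against 74.8% to 83.2%, and 63.9% of Nedd8 counts on Nedd8-201, against 74.9% to 80.2%. The median difference between the length and the effective length of transcripts over 5000 bases, which follows the fragment length used in the assignment of reads, was 246 bases in WT replicate 3 and 202 to 211 bases in the other 5. That library was also the shallowest, and the part of depth and of fragment length in its shares was not tested. In CPM, summing over a gene's transcripts removes the division of reads among them. The gene-level CPM of WT replicate 3 lay between the other WT values for 8 of the 10 genes, a count not taken over all genes tested. Gene TPM still depends on the division, since counts are divided by transcript length. In TPM, WT replicate 3 was the highest of the 6 samples for Nae1 (69.4), Cand1 (154) and Arih1 (59.3) and the lowest for Nedd8 (235). It was neither for the other genes, and the cause was not tested.

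**Figure D5:**
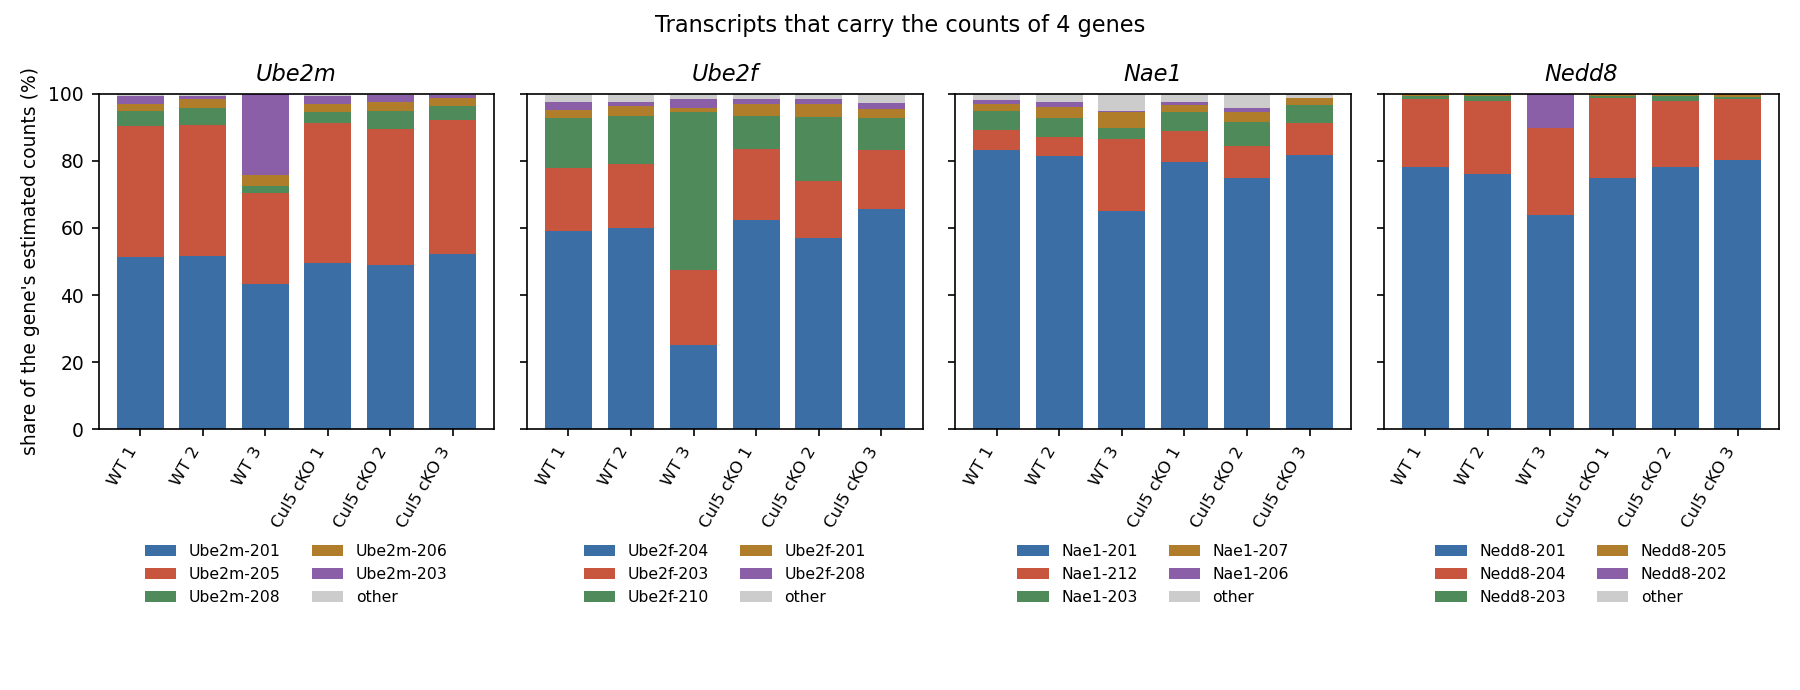
Share of the estimated counts of Ube2m, Ube2f, Nae1 and Nedd8 (y axis, %) on the 5 transcripts of each with the most counts, in each of the 6 samples, with the remaining transcripts in grey. WT replicate 3 differs from the other 5 samples in all 4 panels, with 24.1% of Ube2m on Ube2m-203 and 46.9% of Ube2f on Ube2f-210.

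Few counts were assigned to near-identical copies of the other genes. At 95% identity over at least 150 bases, Arih2 matched Gm12263 and AC166058.1, Ube2f matched Gm5434 and Gm7099, and Dcun1d1 matched Tes3-ps, none of which held more than 0.321% of its partner's counts. How reads were divided between such copies is uncertain, and reads lost to them were not tested.

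The other genes of the pathway were taken from 5 lists with 36 genes, all of which passed the filter on low counts. Of these, 0 rose and 1, Cul5, fell at an edgeR adjusted p under 0.05, beside 1.03% of all genes tested in either direction. By unadjusted p under 0.05 there were 5 higher and 1 lower, or 6 of 36, against 21.3% of all genes tested. The samples did not overlap for 9 genes with Cul5 cKO higher and for Cul5, which is the gene deleted by design. Over all genes tested the shares were 14.0% on the higher side and 27.5% in either direction. The median log2 fold change of the 36 was 0.06, beside -0.0068 over all genes tested. Scaling by library totals alone moved the median of all genes tested to -0.05.

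Among the 6 genes for DCN1-like proteins and RBX subunits, none was called. Dcun1d2 and Dcun1d4, which encode further DCN1-like proteins, had the largest log2 fold changes, of 0.22 (edgeR adjusted p = 0.524) and 0.20 (edgeR adjusted p = 0.535), and that of Dcun1d4 turned to between -0.16 and -0.13 on TPM-based values and the authors' table. Rnf7, the RING subunit that pairs with CUL5 and UBE2F, was looked at after its values were seen. It was at 46.3, 44.6 and 41.8 CPM in WT and at 49.1, 46.8 and 53.9 CPM in Cul5 cKO samples, without overlap, with a log2 fold change of 0.17 (95% interval -0.02 to 0.35, edgeR adjusted p = 0.281).

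Of the 10 COP9 signalosome genes, none was called, 2 had an unadjusted p under 0.05 and 3 did not overlap, all with Cul5 cKO higher, where the shares over all genes tested were 21.3% for the first (either direction) and 14.0% for the second. The median log2 fold change was 0.08. Gps1, which encodes subunit 1 of the complex, was at 127, 131 and 125 CPM in WT and at 149, 144 and 159 CPM in Cul5 cKO samples, a log2 fold change of 0.24 (SE 0.0637, edgeR adjusted p = 0.113). Cops7a, one of a pair of genes for subunit 7, followed with 0.18 (SE 0.0663, edgeR adjusted p = 0.192).

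The 4 genes for NEDD8 processing, turnover and ligase inhibition included none that was called. Senp8, a protease that trims the NEDD8 precursor and takes NEDD8 off its targets, was low, at 7.30, 5.49 and 7.09 CPM in WT and 5.86, 3.33 and 3.60 CPM in Cul5 cKO samples. WT replicate 2 lay below Cul5 cKO replicate 1, and the log2 fold change of -0.62 had a wide error (SE 0.267, edgeR adjusted p = 0.234). Uchl3, another hydrolase that can process the NEDD8 precursor, was at 59.5, 54.8 and 48.8 CPM in WT and at 66.3, 68.8 and 69.8 CPM in Cul5 cKO samples. These groups did not overlap, with a log2 fold change of 0.32 (SE 0.0823, edgeR adjusted p = 0.110).

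Among the 8 cullins, Cul5 was the only one called. Cul9 had the next largest log2 fold change, of -0.33 (SE 0.171, edgeR adjusted p = 0.323), at 9.39, 12.8 and 12.4 CPM in WT and 9.29, 10.2 and 7.87 CPM in Cul5 cKO samples. The 8 ubiquitin E1 and E2 genes of cullin ligases included none that was called and 4 that did not overlap, with Cul5 cKO higher, as 14.0% of all genes tested did. Uba1, the main ubiquitin activating enzyme, was at 1497, 1496 and 1429 CPM in WT and at 1765, 1753 and 1734 CPM in Cul5 cKO samples, a log2 fold change of 0.25 (SE 0.0487, edgeR adjusted p = 0.0687). Cdc34, an E2 that extends ubiquitin chains on cullin ligase substrates, was at 147, 131 and 134 CPM in WT and at 174, 167 and 177 CPM in Cul5 cKO samples, a log2 fold change of 0.33 (SE 0.0685, edgeR adjusted p = 0.0724). Both genes missed the threshold as Ube2m did. Both passed it with DESeq2 (adjusted p = 0.00102 and 0.00413), which called 5.84% of the genes to which it gave an adjusted p. Apart from the unadjusted p, 5 of 19 alternatives called Uba1 and 6 called Cdc34. Limma on log2(TPM + 0.1) gave log2 fold changes of 0.15 and 0.24 (adjusted p = 0.541 and 0.351).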

How the data were processed

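Naive CD4+ T cells were cultured for 48 h in Th9 conditions, and poly-A RNA of 3 WT and 3 Cul5 cKO samples was sequenced in single-end reads on a BGISEQ-500. The authors assigned reads to GRCm38 transcripts with kallisto 0.46.2 and deposited estimated counts and TPM per transcript, together with a gene-level table of TMM-normalised log2 CPM made with edgeR 3.34.0. That table's fold change and p-value columns are the authors' own comparison and were not used. Estimated counts were summed by gene with GENCODE vM21, which matched 97.7% of transcripts, and were rounded. The unmatched transcripts held 0.958% to 1.04% of a sample's counts. WT replicate 3 had 3944803 counts, so 3 counts equal 0.759 CPM there and at most 0.133 CPM elsewhere, limits that cover counting error only.

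Genes were tested in R 4.3.3 with edgeR 4.0.16 (expression filter, TMM, quasi-likelihood test, Benjamini-Hochberg over 12925 genes), called at an adjusted p under 0.05. SE and 95% intervals come from the F statistic. Ratios were compared by exact permutation in scipy 1.17.1. TPM served for levels between genes. Alternatives used DESeq2 1.42.0 and limma 3.58.1, other filters and scalings, the deposited log2 values, thinned libraries and left-out samples. Copies were sought with blastn 2.17.0. Scripts were tested on simulated data. No pair of libraries within a genotype differed by as little as sampling noise. The genes and lists were chosen with earlier results of these data known. Named are all 10 genes, Cul5, the called and the 2 most changed genes of each pathway list, and the 3 genes most correlated with Arih2.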

Additional observations from a re-analysis of the deposited data

How the results depend on the processing

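Of the 12925 genes, 133 were called, and the count was 748 with DESeq2, 228 without the filter, 61 with counts scaled from TPM, 4 with limma on the authors' table, 17 on log2(TPM + 1) and 1 on log2(TPM + 0.1), both by limma, 2753 by unadjusted p, 1688 with replicate 1 as a term, 1153 with replicates 2 and 3 alone and 1259 with voom. Leaving out 1 sample gave 2 to 316 calls: 316 without WT replicate 1, 2 when either WT replicate 2 or WT replicate 3 was omitted, and 45 and 3 on omitting Cul5 cKO replicate 2 and Cul5 cKO replicate 3. Of the 10 genes, 1, Ube2m, was called with DESeq2, by unadjusted p, with replicate 1 as a term, with replicates 2 and 3 alone and with voom, and 0 under the other alternatives, each left-out sample included. The number above 0, which was 5, was 2 with library size alone, 3 on either log2 TPM scale, 4 on the authors' table and 5 to 7 with 1 sample left out (7 without WT replicate 3 or Cul5 cKO replicate 2). Of the 36 pathway genes, 1 was called, and 3 with DESeq2, 6 by unadjusted p, 5 with replicate 1 as a term or with voom, 4 with replicates 2 and 3 alone and 1 to 3 with 1 sample left out (3 without WT replicate 1, with Cdc34 and Uba1 beside Cul5). Cul5 was called under every alternative. The cause of these shifts was not tested.

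Estimates near 0 turned sign. Library size alone gave -0.021 for Uba3, -0.023 for Arih1 and -0.00083 for Cand1. Counts scaled from TPM gave -0.10 for Cand1, 0.036 for Dcun1d1 and -0.13 for Dcun1d4. Limma on the authors' table gave -0.019 for Arih1, -0.12 for Cand1, 0.11 for Dcun1d1 and -0.14 for Dcun1d4. For Arih1, Cand1 and Dcun1d4 the log2(TPM + 1) scale gave -0.038, -0.14 and -0.13, and log2(TPM + 0.1) gave -0.039, -0.14 and -0.16. With 1 sample left out, the log2 fold change ranged from -0.051 to 0.084 for Uba3, from -0.12 to 0.067 for Ube2f, from -0.16 to 0.070 for Arih2, from -0.0054 to 0.091 for Cand1 and from -0.066 to 0.0023 for Dcun1d1. The transcript with the most counts gave -0.12 for Ube2m to Ube2f and -0.087 for Arih1 to Arih2, and for the latter leaving out 1 sample gave -0.041 to 0.17. Nedd8, Nae1, Ube2m and Cand2 kept their sign throughout.

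The deviations of samples with the same replicate number had correlations of 0.370, 0.206 and 0.0245, and those with different numbers ran from -0.333 to 0.201. Not every sample correlated best with its own number. The labels do not say that the numbers mark pairs, and the main fit did not take them as pairs. These correlations do not show that a shared replicate structure was absent. With the replicate block 848 genes, 0 of the 10 and 2 of the 36 pathway genes (Cul5 and Cdc34) were called, and the blocked log2 fold change of Ube2m was 0.26 (adjusted p = 0.0526). The paired differences of the 4 ratios were those given above, with exact sign-flip tests that cannot go below 0.25.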
